A study of Homo sapiens with 16 samples.

Results

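The cadherin and protocadherin genes were taken as every row of the count table whose symbol is CDH and a number or begins with PCDH, without antisense RNAs and pseudogenes, which gave 38 of 27037 genes. They comprise 22 CDH genes, of which 5 are type I classical, 12 type II classical and 5 atypical cadherins, and 16 PCDH rows, of which 11 are nonclustered and 5 clustered protocadherins. Of the clustered genes, PCDHB15 and PCDHGA1 have rows of their own, and the other 3 rows are named for whole loci: PCDHA@, PCDHB@ and PCDHG@. Which exons the locus rows count is not given in the sources used here. CDH19, PCDH11X and PCDH11Y are not analysed here.

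The genes were measured by RNA-seq of polyadenylated RNA from SK-N-BE(2)C, an adrenergic neuroblastoma cell line with MYCN amplification. Cells received the vehicle DMSO, the CDK4/6 inhibitor palbociclib at 1 µM (PB), retinoic acid at 10 µM (RA) or both agents at these doses (PB+RA) for 5 days, with 4 replicates per group from different passages of this 1 line. Libraries held 19515779 to 31620821 counted reads. The 8 adrenergic markers summed to 2330 to 2621 CPM (counts scaled to 1000000 per library) in DMSO and 2932 to 3194 in PB. The sums were 2602 to 2951 in RA and 2787 to 3698 in PB+RA. By the rule below, PB raised 3 and lowered 1 of the 8 (16.9% and 11.3% of all genes). RA raised 2 and lowered 2 (10.8% and 2.54%), and PB+RA raised 2 and lowered 1 (24.0% and 17.9%). The 5 listed Schwann cell markers summed to 18.4 to 45.7 CPM in DMSO and 30.1 to 54.6 in PB. They summed to 23.5 to 52.3 in RA and 31.2 to 39.4 in PB+RA. Of 3 tested by the rule below, 2 were called higher in PB, 1 in RA and 2 in PB+RA. In PB+RA 1 was called lower. Of all genes, 16.9%, 10.8% and 24.0% were higher, and 17.9% lower in PB+RA. The Schwann cell factor SOX10, also listed, was at no more than 1 read in any library.

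Cadherins are calcium-dependent adhesion receptors of the plasma membrane. Classical cadherins bind the same or a related cadherin on the next cell and are tied to actin by catenins, type I members such as N-cadherin giving strong adhesion and type II members being expressed in combinations that sort neurons into groups. Protocadherins lack the catenin-binding tail: the delta members act in axon growth and synapse formation, partly through the WAVE actin regulators, and the clustered genes give single neurons an identity by a choice among alternative promoters that depends on CTCF and cohesin.

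Of the 38 genes, 27 had enough reads to be tested and 11 did not. The 11 held 1 to 104 reads over all 16 libraries together, and at most 14 in any library. They include CDH1 (E-cadherin), with 4 reads in all, and CDH13 (T-cadherin), with 10. A gene was called when its edgeR quasi-likelihood test gave an adjusted p (Benjamini-Hochberg over all 15415 genes tested) under 0.05 and its log2 fold change exceeded 0.5 in either direction. By this rule 21 of the 27 were called in at least 1 comparison or in the interaction of the agents, against 51.5% of all genes tested, and 6 in none (CDH5, CDH22, PCDHA@, PCDHB@, PCDHG@ and PCDHGA1).

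PB raised 6 and lowered 3 of the 27 genes, and the median log2 fold change was 0.15 against 0.03 over all genes. Of all genes tested, 16.9% were called higher and 11.3% lower. RA raised 7 (10.8% of all genes) and lowered 5 (2.54%), with a median of 0.20 against 0.01. The combination raised 6 (24.0%) and lowered 8 (17.9%) relative to DMSO, with a median of 0.32 against 0.04. Relative to PB alone, PB+RA raised 4 (9.02%) and lowered 7 (7.27%). Relative to RA alone, it raised 3 (14.9%) and lowered 7 (14.1%). The 3 comparisons with DMSO share the same control libraries. With the replicate number as a block, PB raised 8 and lowered 7, RA raised 9 and lowered 6, and PB+RA raised 10 and lowered 9 relative to DMSO. The block took the counts over all genes to 2878 higher and 1865 lower in PB, 2007 and 509 in RA, and 3909 and 2863 in PB+RA. With a correction for GC content and gene length, which shifts the median of all genes for RA from 0.01 to -0.10, PB raised 3 and lowered 5, RA raised 6 and lowered 8, and PB+RA raised 4 and lowered 9 of 24 genes, the locus rows having no length. The correction moved the split of all genes in the same way, from 2606 higher and 1746 lower to 2031 and 2090 in PB, from 1661 and 392 to 1261 and 783 in RA, and from 3698 and 2757 to 2971 and 3279 in PB+RA.

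**Figure D1:**
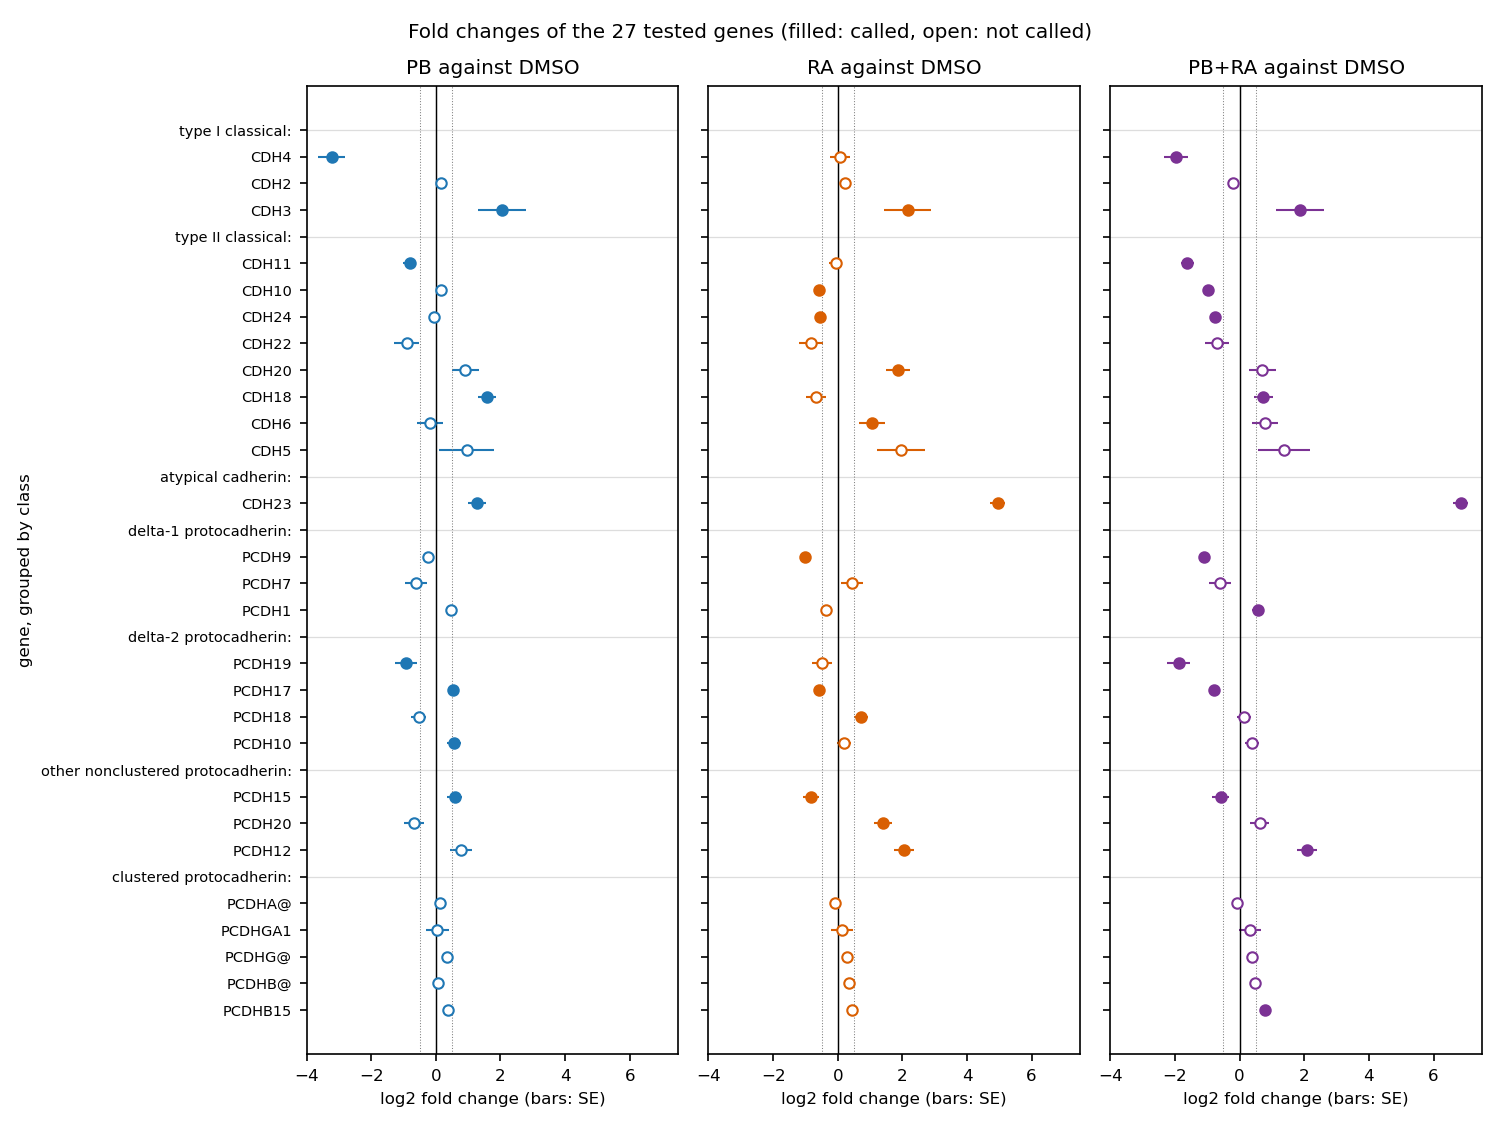
Log2 fold change (x axis, bars are the standard error) of each of the 27 tested genes, grouped by class, in PB, RA and PB+RA against DMSO. Filled points were called and dotted lines mark a log2 fold change of 0.5; CDH23 lies farthest right in the RA and PB+RA panels, at 4.95 and 6.84.

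CDH23 had the largest change among the 27 genes in RA and in PB+RA. It encodes an atypical cadherin with a long extracellular part that joins PCDH15 in the tip links of inner ear hair cells. In hg19 the gene spans chr10:73156677-73575704. Its level was 1.35, 1.30, 0.885 and 1.16 CPM in the DMSO libraries, 4.03, 2.66, 2.04 and 2.49 in PB, 40.7, 31.0, 31.5 and 42.0 in RA, and 171, 144, 103 and 127 in PB+RA. No group overlapped another, and the order was DMSO, PB, RA, PB+RA. PB raised it 2.42-fold (log2 1.27 ± 0.27 SE, adjusted p = 0.00093), RA 30.8-fold (4.95 ± 0.22, adjusted p = 7.7e-10) and PB+RA 114-fold (6.84 ± 0.23, adjusted p = 1.3e-12). It was the single member called in all 5 comparisons, being 47.3-fold higher in PB+RA than in PB and 3.71-fold higher than in RA. The PB call was not made with replicates 3 and 4 alone (log2 1.12, adjusted p = 0.072), and the RA and PB+RA calls were made under every alternative.

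The 5 listed hair cell markers summed to 2.53 to 3.76 CPM in DMSO, 6.94 to 12.2 in PB, 4.78 to 7.84 in RA and 13.9 to 23.6 in PB+RA, most of it MYO7A in the treated groups. MYO7A, the motor that anchors the tip link, averaged 1.91 CPM in DMSO, 7.0 in PB, 4.90 in RA and 15.5 in PB+RA, called higher in all 3. The list holds ATOH1, POU4F3, MYO7A, OTOF and TMC1, of which 2 were tested, MYO7A being 1 of them. Both were called higher in PB and in PB+RA, and 1 in RA. Of all genes, 16.9%, 24.0% and 10.8% were called higher in these comparisons. ATOH1, POU4F3 and TMC1 stayed at or under 0.571, 0.0819 and 0.0512 CPM in every library. The part of these genes in the CDH23 values was not tested. PCDH15, the partner of CDH23 in the tip link, was lower in RA and PB+RA (values below). Of the 8 listed tip-link components, 4 were tested, of which 2 were higher and 1 lower in PB+RA than in DMSO (24.0% and 17.9% of all genes), the lower one being the calcium-binding CIB2 (20.03 to 12.7 CPM, log2 -0.69 ± 0.14, adjusted p = 0.00032).

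Promoter windows of 300 bases (250 before and 50 after each start, RefSeq, GRCh38.p14) were found for 22 of the 38 symbols, 34 windows in all. The retinoic acid receptor binds paired copies of AGGTCA or AGTTCA, so both words were searched on both strands. AGGTCA lies in 3 of the 34 windows and AGTTCA in 4, against 13.8% and 10.4% of all 35116 windows. The AGTTCA genes are CDH12, CDH23, PCDH7 and PCDH9, of which CDH23 rose and PCDH9 fell with RA. PCDH7 was not called in RA, but was called higher with the replicate block (0.51 ± 0.17, adjusted p = 0.030). CDH12 had too few reads to be tested and was called higher in RA with no filter (adjusted p = 0.0021). CDH12 holds AGGTCA as well, and its sequence is not shown. A word in a window is a description of the sequence and not a binding site. The 3 CDH23 windows are shown because of its rise, and those of PCDH9 and PCDH7 because they hold the same word, with either word, on either strand, in capitals. All are written 5′ to 3′ on the strand of the gene.
CDH23 start 1, chr10:71396670-71396969, plus strand: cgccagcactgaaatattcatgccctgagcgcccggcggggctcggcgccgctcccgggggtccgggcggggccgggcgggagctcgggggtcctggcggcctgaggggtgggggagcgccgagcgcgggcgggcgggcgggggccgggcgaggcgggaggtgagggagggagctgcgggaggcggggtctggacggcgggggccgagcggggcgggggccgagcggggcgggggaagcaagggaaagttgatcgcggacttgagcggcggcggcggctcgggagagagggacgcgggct
CDH23 start 2, chr10:71795521-71795820, plus strand: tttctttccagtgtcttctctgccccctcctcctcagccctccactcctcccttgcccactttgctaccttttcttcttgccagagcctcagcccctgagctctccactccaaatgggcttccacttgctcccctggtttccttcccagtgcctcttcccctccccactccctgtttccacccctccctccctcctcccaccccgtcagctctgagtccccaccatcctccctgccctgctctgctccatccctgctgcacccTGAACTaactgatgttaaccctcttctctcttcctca
CDH23 start 3, chr10:71811633-71811932, plus strand: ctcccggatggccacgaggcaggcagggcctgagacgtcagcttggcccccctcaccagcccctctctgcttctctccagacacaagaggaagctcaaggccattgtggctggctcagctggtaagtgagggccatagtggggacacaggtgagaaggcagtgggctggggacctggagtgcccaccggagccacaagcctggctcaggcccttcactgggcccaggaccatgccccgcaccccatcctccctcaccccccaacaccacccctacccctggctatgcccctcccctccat
PCDH9, chr13:67230287-67230586, minus strand: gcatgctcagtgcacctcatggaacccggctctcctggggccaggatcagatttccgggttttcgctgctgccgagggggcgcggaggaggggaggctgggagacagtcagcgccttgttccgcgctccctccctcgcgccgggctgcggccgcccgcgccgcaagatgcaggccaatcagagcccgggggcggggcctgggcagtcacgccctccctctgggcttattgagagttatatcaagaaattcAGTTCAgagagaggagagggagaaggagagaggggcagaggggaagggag
PCDH7, chr4:30720119-30720418, plus strand: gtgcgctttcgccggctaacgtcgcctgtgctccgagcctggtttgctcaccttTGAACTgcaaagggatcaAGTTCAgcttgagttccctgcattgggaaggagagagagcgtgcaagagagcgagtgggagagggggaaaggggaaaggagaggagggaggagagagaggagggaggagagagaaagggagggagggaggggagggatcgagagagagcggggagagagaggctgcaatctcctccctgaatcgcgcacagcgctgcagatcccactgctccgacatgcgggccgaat
The first and the last CDH23 window hold neither word, and the second holds 1 copy. PCDH7 holds 2 copies, on opposite strands. Reads were counted per gene, so which CDH23 start was used is not known from these counts.

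Among the type I classical cadherins, CDH2 (N-cadherin, the main neural type) was the most abundant, with a mean of 201 CPM. It was at 171, 217, 191 and 190 CPM in DMSO, 201, 217, 217 and 215 in PB, 194, 222, 249 and 240 in RA, and 151, 174, 179 and 179 in PB+RA. The PB+RA libraries lay below all PB and all RA libraries and overlapped DMSO. No pairwise comparison passed the fold minimum, the largest being PB+RA against RA (log2 -0.42 ± 0.08, adjusted p = 0.00034). In the main fit the effects did not add up: the sum of the single-agent changes was 0.37 on the log2 scale and the combination gave -0.20, an interaction of -0.57 ± 0.12 (adjusted p = 0.0082). That call fell under the fold minimum without DMSO replicate 1 (-0.47) or RA replicate 3 (-0.48), and with the GC and length correction (-0.48). It was also lost with replicates 1 and 2 alone, and with the replicate block and that correction together. The largest adjusted p over the alternatives was 0.21.

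The other type I members were rare and are named after their values were seen. CDH4 (R-cadherin) had 17, 36, 37 and 43 reads in DMSO, 20, 36, 45 and 26 in RA, 5, 1, 2 and 3 in PB, and 9, 7, 9 and 4 in PB+RA. Both groups with PB lay below both groups without it, with log2 changes of -3.22 ± 0.42 for PB (adjusted p = 8.0e-06) and -1.97 ± 0.36 for PB+RA against DMSO (adjusted p = 0.00013). RA alone left it at 0.07 ± 0.30. CDH3 (P-cadherin) lies next to CDH1 on chromosome 16 and had 4, 4, 7 and 3 reads in DMSO, 25, 25, 5 and 5 in PB, 21, 29, 7 and 16 in RA, and 14, 29, 2 and 11 in PB+RA. It was called higher in all 3 treated groups (log2 2.04 ± 0.74, 2.16 ± 0.72 and 1.86 ± 0.75), while with replicates 3 and 4 alone the PB change was 0.37 (adjusted p = 0.75). With those replicates alone the RA change was 1.37 (adjusted p = 0.14) and the PB+RA change 0.69 (adjusted p = 0.48), and the 3 calls were lost in 5, 6 and 7 of the 16 fits without 1 library. Epithelial markers, to which E- and P-cadherin are often joined, summed to 17.1 to 22.3 CPM in DMSO, 15.8 to 26.8 in PB, 46.6 to 75.2 in RA and 39.4 to 72.2 in PB+RA, mostly KRT18 and KRT8. The epithelial splicing factor ESRP1 was at or under 0.0795 CPM throughout. Of the 4 epithelial markers tested, PB raised 1 and lowered 1 (16.9% and 11.3% of all genes). RA and PB+RA each raised 3 (10.8% and 24.0%), and neither lowered any of these markers. Their part in the CDH3 values was not tested. In bulk RNA, fewer cells with a transcript and less of it per cell cannot be told apart, here or for any other member.

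CDH24 was the most abundant type II cadherin, with a mean of 170 CPM. It was at 224, 203, 205 and 204 CPM in DMSO, 213, 217, 190 and 184 in PB, 139, 155, 143 and 142 in RA, and 142, 146, 118 and 97.0 in PB+RA. Every library with RA lay below every library without it. RA lowered it 1.45-fold (log2 -0.53 ± 0.10, adjusted p = 0.00068) and PB+RA 1.69-fold (-0.76 ± 0.10, adjusted p = 4.8e-06), while PB gave -0.05 ± 0.10.

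CDH10, a type II cadherin of the nervous system, fell in the same groups. It was at 48.7, 46.6, 47.2 and 48.7 CPM in DMSO, 51.6, 41.5, 60.6 and 58.4 in PB, 37, 26.6, 32.1 and 33.3 in RA, and 25.2, 22.2, 25.2 and 26.7 in PB+RA. The RA and PB+RA libraries lay below all DMSO and PB libraries. RA lowered it 1.49-fold (log2 -0.58 ± 0.11, adjusted p = 0.00075) and PB+RA 1.97-fold (-0.98 ± 0.11, adjusted p = 8.1e-07). The interaction of -0.55 ± 0.16 only just passed (adjusted p = 0.0498) and was lost in 14 of the 16 fits without 1 library, the lowest value being -0.64 and the highest -0.43.

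CDH11, the cadherin of osteoblasts and mesenchyme, fell with PB alone and with PB added to RA. It was at 41.6, 43.9, 24.8 and 32.3 CPM in DMSO, 24.5, 23.7, 13.1 and 19.7 in PB, 32.2, 28.9, 35.5 and 40.5 in RA, and 11.1, 13.9, 9.13 and 13.2 in PB+RA. All PB libraries lay below the lowest DMSO library, and PB+RA was lower again, overlapping PB at the lowest PB library. PB lowered it 1.76-fold (log2 -0.81 ± 0.20, adjusted p = 0.0031) and PB+RA 3.07-fold (-1.62 ± 0.21, adjusted p = 5.2e-06), while RA gave -0.06 ± 0.20. PB+RA was 2.94-fold below RA. RA added to PB lowered it 1.75-fold (-0.80 ± 0.21, adjusted p = 0.0072), a change not called with replicates 3 and 4 alone (-0.60, adjusted p = 0.16). Over the same libraries the 8 measured mesenchymal neuroblastoma markers summed to 284 to 392 CPM in DMSO, 306 to 479 in PB, 738 to 1096 in RA and 567 to 900 in PB+RA, FN1 averaging 733 CPM in RA. Of these 8 markers, PB raised 1 and lowered 2 (16.9% and 11.3% of all genes), with a median log2 change of -0.19. RA raised 5 and PB+RA raised 2 (10.8% and 24.0%), and neither lowered any. Relative to RA, PB+RA raised 0 and lowered 2 (14.9% and 14.1%). The part of these markers in the CDH11 values was not tested.

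CDH6 (K-cadherin, present in migrating neural crest) was at 5.64, 3.83, 7.68 and 9.75 CPM in DMSO, 6.99, 4.98, 5.37 and 6.43 in PB, 10.3, 6.07, 16.9 and 23.3 in RA, and 8.11, 7.09, 12 and 20.1 in PB+RA. All PB+RA libraries lay just above all PB libraries, and every other pair of groups overlapped. Replicates 3 and 4 were the highest in DMSO, RA and PB+RA. Its RA call (log2 1.06 ± 0.40, adjusted p = 0.0498) was lost in 11 of the 16 fits without 1 library, with values from 0.69 to 1.30. With the replicate block, PB+RA against DMSO was also called (0.75 ± 0.20, adjusted p = 0.0040), as was PB+RA against PB (0.87 ± 0.21, adjusted p = 0.0036).

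CDH18 averaged 1.71 ± 0.62 CPM (SD, n = 4) in DMSO, 5.15 ± 0.72 in PB, 1.08 ± 0.50 in RA and 2.94 ± 0.84 in PB+RA. PB raised it 2.98-fold (log2 1.58 ± 0.29, adjusted p = 0.00021), and adding PB to RA raised it 2.66-fold (1.41 ± 0.31, adjusted p = 0.0011). RA gave -0.68 ± 0.32 alone (adjusted p = 0.11, or 0.045 with the replicate block) and -0.84 ± 0.28 on top of PB (adjusted p = 0.025). The latter was lost without PB replicate 1 or PB+RA replicate 1 or 2, and was -0.41 (adjusted p = 0.17) with replicates 3 and 4 alone. The smaller PB+RA rise over DMSO (0.73 ± 0.29) was lost without any of DMSO replicates 1, 2 and 4 or PB+RA replicates 2, 3 and 4.

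CDH20, also named after its values were seen, held 14, 12, 8 and 10 reads in DMSO, 14, 27, 14 and 11 in PB, 32, 57, 25 and 31 in RA, and 12, 23, 9 and 17 in PB+RA. RA raised it 3.64-fold (log2 1.86 ± 0.38, adjusted p = 0.0014), and with PB present the RA effect was no longer seen (-0.21 ± 0.40 for PB+RA against PB). The interaction was -2.07 ± 0.55 (adjusted p = 0.039) and was lost in 12 of the 16 fits without 1 library. PB+RA was below RA (-1.16 ± 0.37, adjusted p = 0.014), lost without RA replicate 2 (-0.88, adjusted p = 0.058). With the replicate block, PB (0.88 ± 0.29, adjusted p = 0.012) and PB+RA (0.67 ± 0.30, adjusted p = 0.048) were called higher than DMSO too. CDH5 (VE-cadherin of endothelium) and CDH22 averaged under 0.5 CPM and were not called. CDH5 held 5, 11, 1 and 2 reads in DMSO and 8, 11, 4 and 7 in PB. It held 5, 42, 14 and 8 in RA and 7, 25, 6 and 5 in PB+RA, replicate 2 being highest in every group. CDH22 held 15, 14, 19 and 14 reads in DMSO and 7, 8, 7 and 4 in PB. It held 6, 12, 8 and 5 in RA and 10, 11, 2 and 9 in PB+RA. With the block CDH5 was called higher in RA (1.90 ± 0.40, adjusted p = 0.00058) and in PB+RA (1.33 ± 0.44, adjusted p = 0.010), and CDH22 lower in PB (-0.92 ± 0.37, adjusted p = 0.034). DESeq2 also called CDH5 higher in RA (1.91, adjusted p = 0.042). CDH22 was also called lower with the GC and length correction in PB (-1.04, adjusted p = 0.026), RA (-0.97, adjusted p = 0.037) and PB+RA (-0.89, adjusted p = 0.038). With only the 2 groups compared, or without RA replicate 2 or PB+RA replicate 3, it was called lower in PB and in RA.

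**Figure D2:**
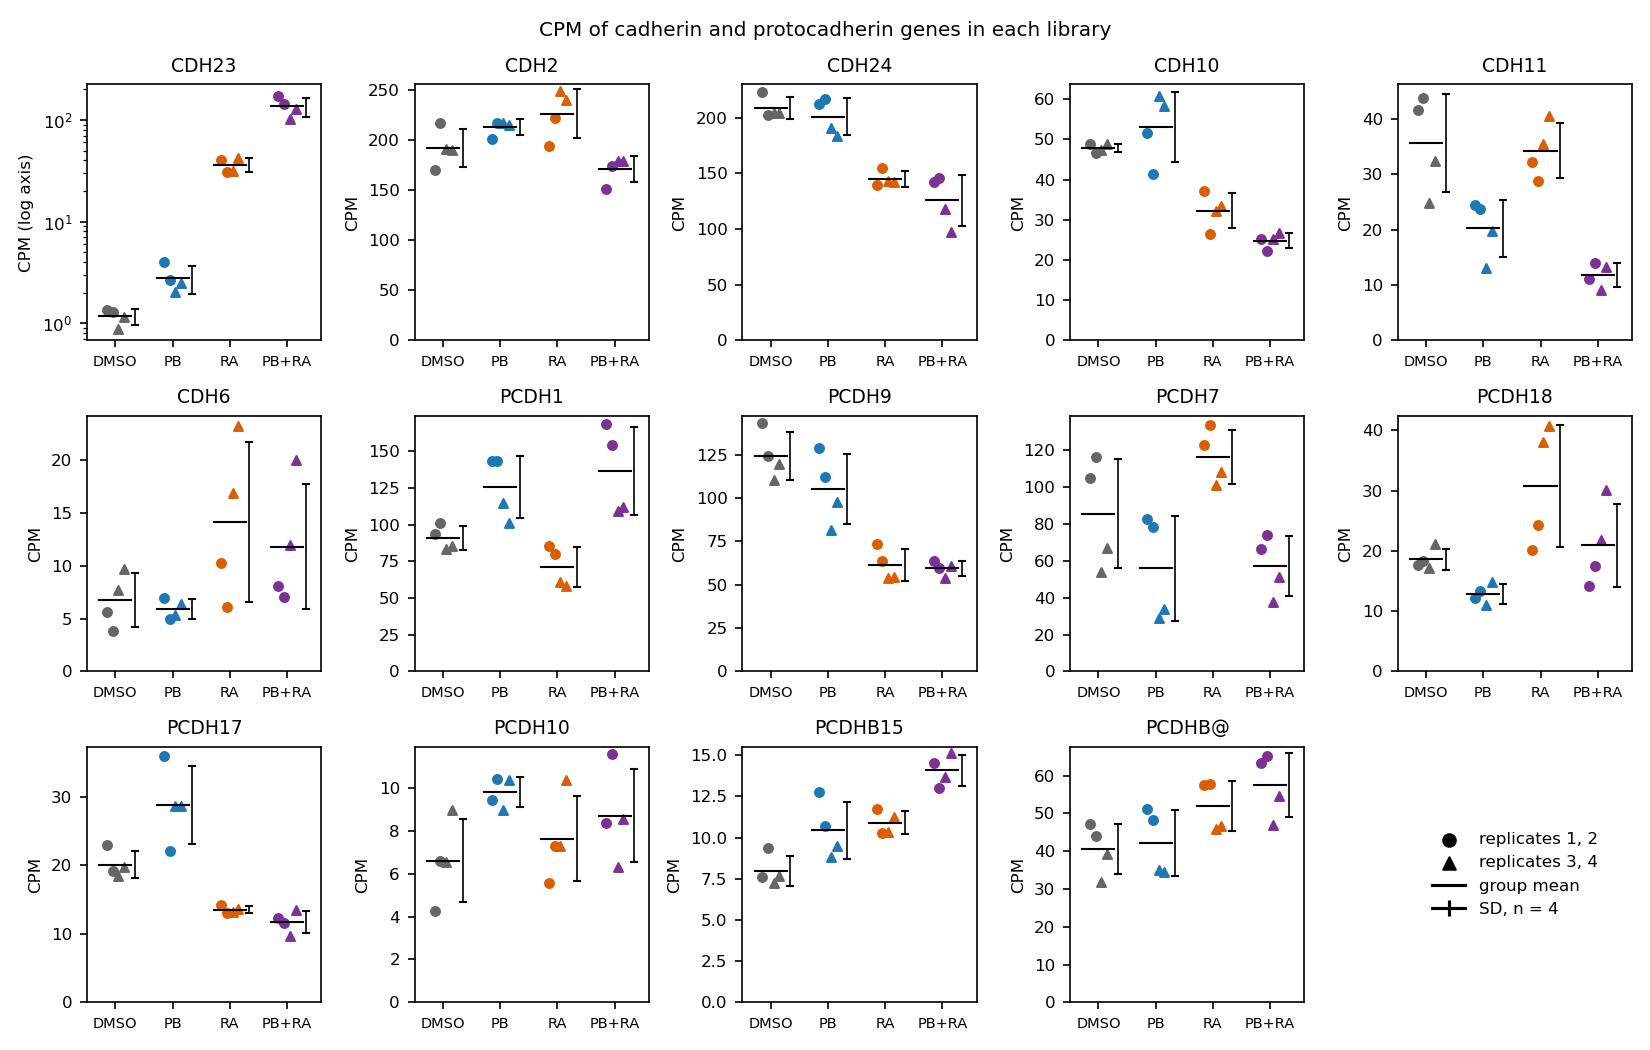
CPM (y axis, from 0 except for the log axis of CDH23) in each library of the 13 members over 5 CPM that were called in a comparison or the interaction, and of PCDHB@, by group. Circles are replicates 1 and 2, triangles replicates 3 and 4, lines group means and bars SD (n = 4); CDH23 rises from about 1 CPM to over 100, and PCDH7 and PCDH1 are higher in replicates 1 and 2 of every group.

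The delta-1 protocadherins PCDH1, PCDH9 and PCDH7 were among the most abundant members and differed in direction. PCDH1, a protocadherin of epithelia and neurons, was at 93.9, 101, 83.3 and 85.5 CPM in DMSO, 143, 143, 115 and 101 in PB, 85.2, 79.9, 60.7 and 58.2 in RA, and 169, 155, 110 and 112 in PB+RA. All PB+RA libraries lay above all DMSO and all RA libraries. PB alone gave a log2 change of 0.47 ± 0.16 (adjusted p = 0.024), under the fold minimum, with all PB libraries above all DMSO libraries. RA alone gave -0.36 ± 0.16, and PB+RA against PB gave 0.09 ± 0.16 (adjusted p = 0.69). PB+RA was 1.47-fold above DMSO (log2 0.56 ± 0.16, adjusted p = 0.0069) and 1.90-fold above RA (0.92 ± 0.16, adjusted p = 0.00021). The first of these fell under the fold minimum without PB+RA replicate 1 (0.41) or 2 (0.46), or with the GC and length correction (0.32), and the second was called in every alternative at this fold minimum.

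PCDH9, expressed in the developing cortex, was at 143, 124, 110 and 119 CPM in DMSO, 129, 112, 81.8 and 97.7 in PB, 73.7, 63.5, 53.8 and 54.4 in RA, and 63.7, 59.7, 53.7 and 60.7 in PB+RA. Every library with RA lay below every library without it. RA lowered it 2.04-fold (log2 -1.03 ± 0.13, adjusted p = 2.2e-05) and PB+RA 2.13-fold (-1.09 ± 0.13, adjusted p = 1.4e-06), while PB added to RA gave -0.07 ± 0.13.

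PCDH7, which binds a protein phosphatase through its tail, was at 105, 116, 54.2 and 67.0 CPM in DMSO, 82.9, 78.2, 28.8 and 33.9 in PB, 123, 134, 101 and 108 in RA, and 66.5, 74.1, 37.5 and 51.1 in PB+RA. Replicates 1 and 2 were above replicates 3 and 4 in all 4 groups. PB+RA was 2.06-fold below RA (log2 -1.04 ± 0.34, adjusted p = 0.017), lost without PB+RA replicate 3 (-0.90, adjusted p = 0.051). The same difference was -0.89 ± 0.08 within replicates 1 and 2 and -1.26 ± 0.17 within replicates 3 and 4, both called. With the replicate block, PB (-0.66 ± 0.18, adjusted p = 0.0074) and PB+RA (-0.59 ± 0.18, adjusted p = 0.011) were called lower than DMSO and RA higher (0.51 ± 0.17, adjusted p = 0.030), where without it none of the 3 was.

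PCDH18 and PCDH17 were the most abundant delta-2 protocadherins, a group whose long tails recruit the WAVE complex or related actin regulators. PCDH18 was at 17.6, 18.3, 17.2 and 21.2 CPM in DMSO, 12.1, 13.4, 11 and 14.9 in PB, 20.1, 24.3, 38.1 and 40.8 in RA, and 14.2, 17.5, 21.9 and 30.1 in PB+RA. RA raised it 1.65-fold (log2 0.72 ± 0.22, adjusted p = 0.021), with RA replicates 3 and 4 far above 1 and 2, and the call was lost without either of them or without DMSO replicate 1 or 3. It was also called higher in PB+RA than in PB (0.67 ± 0.23) and lower than in RA (-0.58 ± 0.22), lost in 5 and 9 of the 16 fits without 1 library. The block added a lower level in PB than in DMSO (-0.53 ± 0.16, adjusted p = 0.010).

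PCDH17 was at 23.0, 19.2, 18.5 and 19.8 CPM in DMSO, 36.0, 22.1, 28.7 and 28.7 in PB, 14.3, 13.0, 13.3 and 13.6 in RA, and 12.3, 11.6, 9.66 and 13.5 in PB+RA. The RA and PB+RA libraries lay below all DMSO and PB libraries, and PB overlapped DMSO through replicate 2. PB raised it 1.43-fold (log2 0.52 ± 0.12, adjusted p = 0.0018), RA lowered it 1.5-fold (-0.58 ± 0.12, adjusted p = 0.0019), and PB+RA lowered it 1.75-fold (-0.80 ± 0.13, adjusted p = 2.9e-05). The PB change sits at the fold minimum and fell under it in 13 of the 16 fits without 1 library, the lowest being 0.38. The single agents summed to -0.06 and the combination gave -0.80, an interaction of -0.75 ± 0.18 (adjusted p = 0.020), lost without DMSO replicate 3, RA replicate 3 or 4, or PB replicate 1 or 3.

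PCDH10, another delta-2 member, was at 4.26, 6.60, 6.55 and 8.98 CPM in DMSO, 9.44, 10.4, 8.98 and 10.4 in PB, 5.57, 7.28, 7.31 and 10.4 in RA, and 8.35, 11.6, 6.30 and 8.56 in PB+RA. Its PB rise (log2 0.57 ± 0.22, adjusted p = 0.034) was lost in 10 of the 16 fits without 1 library. PCDH19, the X-linked gene of a childhood epilepsy, averaged 2.05 ± 0.67 CPM (SD, n = 4) in DMSO, 1.08 ± 0.092 in PB, 1.46 ± 0.69 in RA and 0.567 ± 0.28 in PB+RA. PB+RA lowered it 3.70-fold (log2 -1.89 ± 0.36, adjusted p = 2.0e-04), and PB 1.89-fold (-0.92 ± 0.33, adjusted p = 0.027), the latter lost without DMSO replicate 4 or PB replicate 3. PB+RA against PB was called only with the block (-0.99 ± 0.33, adjusted p = 0.016). PCDH8 was not tested.

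The remaining nonclustered protocadherins were PCDH20, PCDH15 and PCDH12, all under 4 CPM. PCDH20 averaged 2.21 ± 0.72 CPM in DMSO, 1.36 ± 0.36 in PB, 5.83 ± 1.9 in RA and 3.44 ± 1.2 in PB+RA. RA raised it 2.64-fold (log2 1.40 ± 0.28, adjusted p = 0.0012) and 2.47-fold on top of PB (1.30 ± 0.31, adjusted p = 0.0032). With the block it was also lower in PB (-0.68 ± 0.16, adjusted p = 0.00095) and higher in PB+RA (0.60 ± 0.14, adjusted p = 0.00051) than in DMSO. PCDH20 shares 91.3% of its exon bases with a protein-coding annotation entry on the same strand that has no symbol. Whether that entry is a different gene was not examined.

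PCDH15, the tip-link partner of CDH23, averaged 1.65 ± 0.53 CPM in DMSO, 2.49 ± 0.20 in PB, 0.932 ± 0.15 in RA and 1.12 ± 0.34 in PB+RA. It fell with RA (log2 -0.83 ± 0.25, adjusted p = 0.017, lost without DMSO replicate 4) and with RA added to PB (-1.18 ± 0.25, adjusted p = 0.0013), opposite to CDH23. Its smaller PB rise (0.59 ± 0.23) and its PB+RA fall relative to DMSO (-0.59 ± 0.25) were lost in 12 and 6 of the 16 fits without 1 library. PCDH12, an endothelial protocadherin, averaged 0.491 ± 0.15 CPM in DMSO, 0.832 ± 0.49 in PB, 2.05 ± 0.42 in RA and 2.13 ± 0.22 in PB+RA. RA raised it 4.16-fold (2.06 ± 0.31, adjusted p = 0.00011) and PB+RA 4.27-fold (2.09 ± 0.31, adjusted p = 1.8e-05). With the block the PB rise was called too (0.74 ± 0.28, adjusted p = 0.027).

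Of the 5 clustered protocadherin rows, all on chromosome 5, 1 was called and in 1 comparison only. PCDHB@ was the most abundant of their rows, at 47.3, 44.1, 31.9 and 39.2 CPM in DMSO, 51.3, 48.2, 35.1 and 34.4 in PB, 57.7, 57.9, 45.8 and 46.7 in RA, and 63.5, 65.2, 46.8 and 54.7 in PB+RA. The groups overlapped, replicates 1 and 2 were the higher in all 4 groups, and the PB+RA change of 0.48 ± 0.15 (adjusted p = 0.012) stayed under the fold minimum, passing it without DMSO replicate 1 (0.55) or PB+RA replicate 3 (0.54). PCDHG@ changed by 0.33 ± 0.13, 0.30 ± 0.13 and 0.38 ± 0.13 in PB, RA and PB+RA, also under it. PCDHA@ averaged 23.3 ± 2.4 CPM in DMSO, 25.7 ± 4.3 in PB, 22.1 ± 1.2 in RA and 22.4 ± 1.5 in PB+RA, with log2 changes of 0.14 ± 0.10, -0.08 ± 0.10 and -0.08 ± 0.10. PCDHGA1, which shares 34.5% of its exon bases with other gamma genes, was near 0.5 CPM in every group.

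PCDHB15, at chr5:140624963-140628933 in hg19, was the clustered row that was called. It was at 7.62, 9.33, 7.24 and 7.66 CPM in DMSO, 12.7, 10.7, 8.84 and 9.46 in PB, 11.7, 10.3, 10.4 and 11.3 in RA, and 14.5, 13.0, 13.7 and 15.1 in PB+RA. All PB+RA libraries lay above all other libraries, and RA above DMSO. PB+RA raised it 1.73-fold (log2 0.79 ± 0.11, adjusted p = 8.9e-06), under every alternative at this fold minimum, while PB gave 0.39 ± 0.11 and RA 0.45 ± 0.11, with an interaction of -0.04 ± 0.16. Its promoter window is shown because the beta genes share a sequence there. Among 14 beta gene windows, GGTGGCGCTG was the 10-base word found in the most, lying in 12 of them against 0.276% of all windows on either strand. The word was chosen for being shared and is in capitals.
PCDHB15, GRCh38.p14 chr5:141245145-141245444, plus strand: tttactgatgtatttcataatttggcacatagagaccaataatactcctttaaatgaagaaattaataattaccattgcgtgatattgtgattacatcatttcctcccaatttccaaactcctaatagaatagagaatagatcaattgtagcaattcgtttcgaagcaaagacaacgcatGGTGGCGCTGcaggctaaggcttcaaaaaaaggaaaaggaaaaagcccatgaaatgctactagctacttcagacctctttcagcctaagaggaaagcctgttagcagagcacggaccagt

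Of the 11 tested genes for the choice of clustered promoters, none was called higher in any comparison. PB lowered 5 and PB+RA lowered 9 relative to DMSO, RA lowered none, and PB+RA lowered 5 relative to RA. Over all genes the shares called lower in these comparisons were 11.3%, 17.9%, 2.54% and 14.1%. The largest falls in PB+RA were in STAG1 (43.1 to 19.0 CPM, log2 -1.21 ± 0.13), SMC1A (315 to 144, -1.16 ± 0.08) and the methyltransferase DNMT3B (14.1 to 7.02, -1.03 ± 0.11), with adjusted p of 2.9e-07, 2.0e-09 and 4.7e-07. The architectural factor CTCF went from 130 to 89.9 CPM (-0.56 ± 0.09, adjusted p = 3.7e-05). Cohesin genes are also used in cell division, and their part in the protocadherin values was not tested.

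Of 11 tested catenins and linkers of classical cadherins, PB+RA raised 2 and lowered 2, where 24.0% of all genes were higher and 17.9% lower. CTNNAL1 (alpha-catulin) fell from 126 to 32.5 CPM (log2 -1.98 ± 0.08, adjusted p = 5.7e-12), ARVCF rose from 154 to 310 (0.98 ± 0.09, adjusted p = 4.6e-08) and PKP4 fell from 35.0 to 20.1 (-0.83 ± 0.07, adjusted p = 1.3e-08). Beta-catenin (CTNNB1) averaged 324 CPM in DMSO and 339 in PB+RA (0.04 ± 0.06). PB raised 1 and lowered 2 of the 11 (16.9% and 11.3% of all genes), and RA lowered 1 (2.54%).

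Of 9 kinases and proteases that act on cadherins, PB+RA raised 5 and lowered none, PB raised 2 and RA 1, against 24.0%, 16.9% and 10.8% of all genes called higher. PSEN2 rose from 16.2 to 40.4 CPM (log2 1.29 ± 0.14, adjusted p = 5.8e-07), NCSTN from 102 to 176 (0.77 ± 0.04, adjusted p = 1.2e-10) and SRC from 61.5 to 105 (0.74 ± 0.09, adjusted p = 1.1e-06). PSEN2 and NCSTN are subunits of gamma-secretase, which cuts cadherins within the membrane. Of 10 WAVE complex genes, PB+RA raised 2 and lowered 1, led by CYFIP2 (5.22 to 24.9 CPM, 2.22 ± 0.16, adjusted p = 4.3e-09) and with CYFIP1 rising from 203 to 299 (0.53 ± 0.04, adjusted p = 1.0e-08). PB raised 1 and lowered 1 of the 10, and RA raised 2, beside the same shares of all genes.

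Of 14 tested genes of the wider cadherin superfamily, PB+RA raised 6 and lowered 2, PB raised 4 and lowered 1, and RA raised 2. Of all genes, 24.0% were higher and 17.9% lower in PB+RA, 16.9% and 11.3% in PB, and 10.8% higher in RA. The calsyntenins CLSTN3 (42.1 to 130 CPM, log2 1.60 ± 0.11, adjusted p = 2.0e-09) and CLSTN2 (162 to 326, 0.98 ± 0.13, adjusted p = 8.4e-06) and the Fat ligand DCHS1 (25.0 to 65.4, 1.36 ± 0.16, adjusted p = 1.5e-06) rose the most in PB+RA among those over 10 CPM. Of 5 tested repressors of CDH1, PB+RA raised 1, SNAI1 (8.10 to 15.5 CPM, 0.91 ± 0.19, adjusted p = 0.00050), and lowered 2, SNAI2 (18.5 to 11.7, -0.70 ± 0.26, adjusted p = 0.026) and TWIST1 (88.1 to 57.2, -0.65 ± 0.18, adjusted p = 0.0047). PB lowered 2 and RA changed none, beside the same shares of all genes, and CDH1 itself stayed at no more than 2 reads in any library.

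Adding the second agent could be read within the treated groups. RA added to PB lowered PCDH17 2.51-fold (log2 -1.33 ± 0.13, adjusted p = 7.9e-07), CDH10 2.18-fold (-1.13 ± 0.11, adjusted p = 1.2e-06), PCDH9 1.8-fold (-0.85 ± 0.13, adjusted p = 8.7e-05), CDH24 1.63-fold (-0.70 ± 0.10, adjusted p = 4.9e-05) and CDH11 1.75-fold, beside the CDH18 and PCDH15 changes given above. It raised PCDH12 2.51-fold (1.33 ± 0.30, adjusted p = 0.0025), beside the CDH23, PCDH18 and PCDH20 rises given above. The PCDH12 rise was not called with replicates 1 and 2 alone (adjusted p = 0.069). PB added to RA lowered CDH4 4.11-fold (-2.04 ± 0.36, adjusted p = 0.00014), PCDH19 2.64-fold (-1.40 ± 0.37, adjusted p = 0.0041) and PCDH20 1.72-fold (-0.78 ± 0.28, adjusted p = 0.024), beside the changes given above. The PCDH19 change (adjusted p = 0.058) and the PCDH20 change were not called with replicates 1 and 2 alone. The PCDH20 change was also lost without RA replicate 2 or PB+RA replicate 3 or 4.

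For the combination, the log2 change in PB+RA was compared with the sum of the changes in PB and in RA. It lay below the sum in 20 of the 27 genes and above it in 7, with a median interaction of -0.17 against -0.04 over all genes. None was called above the sum, against 0.415% of all genes, and 4 were called below it (CDH2, CDH10, CDH20 and PCDH17), against 3.02%. Of the 27, 6 had an unadjusted p under 0.05, and DESeq2 also called none above. CDH23 gave 6.22 as the sum and 6.84 observed, an interaction of 0.62 ± 0.32 (adjusted p = 0.34). With the block CDH3 was also below the sum (-2.29 ± 0.61, adjusted p = 0.013). With the block and the GC and length correction together, CDH23 (0.73, adjusted p = 0.037) and PCDH1 (0.52, adjusted p = 0.00035) were called above it, and PCDH1 was so with replicates 3 and 4 alone (0.57, adjusted p = 0.00028). The 4 calls below the sum were each lost in some fit without 1 library, leaving 1 to 3 of them. None of these 4 was called with replicates 1 and 2 alone, where the 1 member called below the sum was a different gene.

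**Figure D3:**
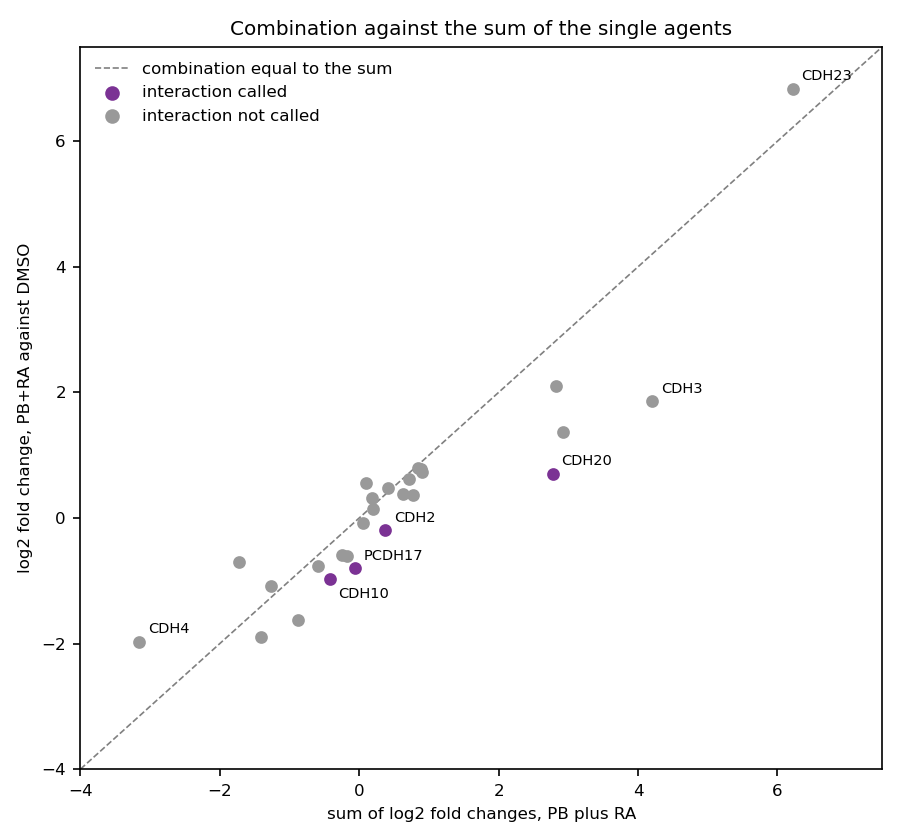
Log2 fold change of PB+RA against DMSO (y axis) and the sum of the PB and RA log2 fold changes (x axis) of the 27 tested genes. The dashed line is equality; 20 genes lie below it, the 4 with a called interaction are coloured, and CDH23 lies above it at 6.22 and 6.84.

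Levels of different genes were compared as CPM per kilobase of merged exon, which the locus rows do not have. In DMSO the order was CDH24 (55.7), CDH2 (22.4), PCDH1 (15.3), CDH10 (13.1), PCDH7 (6.64) and PCDH9 (4.02), and each neighbour up to PCDH7 was separate in all 4 libraries, while PCDH7 and PCDH9 overlapped. CDH23 stood 21st at 0.0632. In PB+RA the order was CDH24 (33.5), PCDH1 (23.0), CDH2 (19.9), CDH23 (7.33), CDH10 (6.78) and PCDH7 (4.44). There the first 3 overlapped in turn, CDH23 was separate from CDH2, and CDH23 and CDH10 overlapped. All 38 genes together came to 931 ± 72 CPM (SD, n = 4) in DMSO, 937 ± 96 in PB, 902 ± 13 in RA and 895 ± 87 in PB+RA, and the ranges of the 4 groups overlapped.

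**Figure D4:**
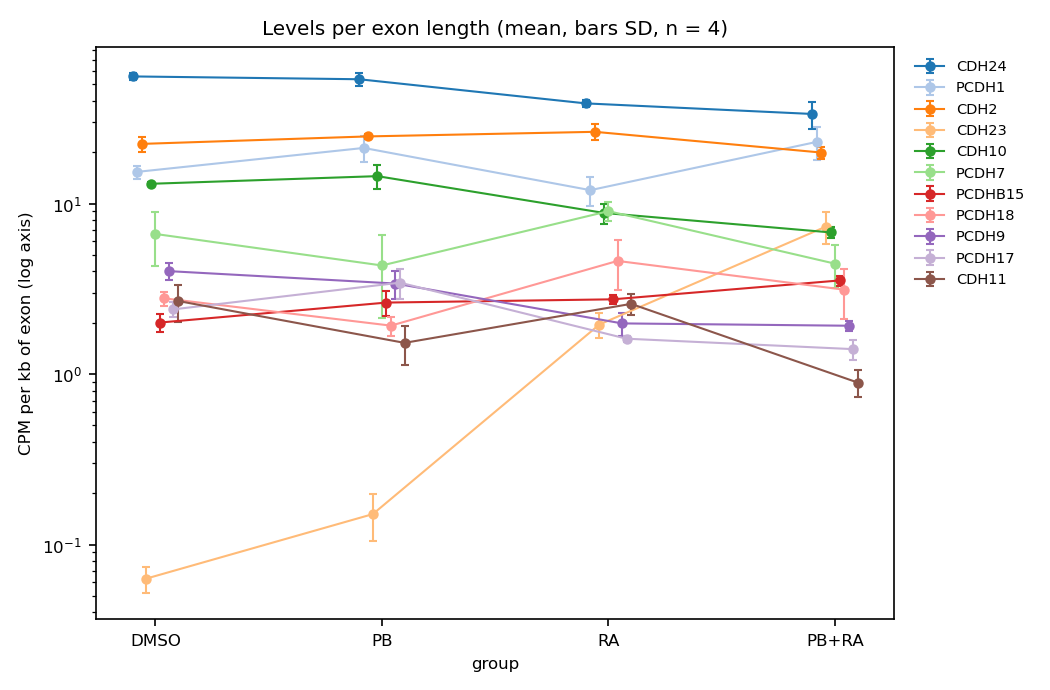
CPM per kilobase of exon (log y axis, mean with SD bars, n = 4) in the 4 groups of the genes that are among the 10 highest in DMSO or in PB+RA. CDH24 is highest in every group, at 55.7 in DMSO and 33.5 in PB+RA, and CDH23 moves from 0.0632 to 7.33.

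Of the 11 genes that were not tested, CDH12, a neural type II cadherin named after its values were seen, had 0, 0, 1 and 0 reads in DMSO, 2, 1, 1 and 2 in PB, 3, 5, 8 and 5 in RA, and 5, 3, 10 and 14 in PB+RA. With no filter on low counts it was called higher in RA (adjusted p = 0.0021) and in PB+RA (adjusted p = 4.5e-05). The DMSO reads are under the limit of 3 that a count of 0 allows, and the fold is therefore not given.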

How the data were processed

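Gene counts of 16 libraries in 4 groups were used as deposited. The authors made them from paired reads of a directional poly(A) library, trimmed and aligned to hg19, and the submitters' processing notes name Trim Galore 0.6.4, STAR 2.6.1d and DESeq2 1.32.0. The annotation release and the strand setting of the counting are not given in the sources used here. The deposited CPM values equal the counts scaled to each library's total and are printed as levels. A deposited table of the authors' comparisons (fold changes and p-values) was not used.

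Tests were run on the counts in R 4.3.3 with edgeR 4.0.16 (TMM, filterByExpr, robust quasi-likelihood F test, 1 fit over all 16 libraries with group as the term), adjusted by Benjamini-Hochberg over 15415 genes. Calls needed an adjusted p under 0.05 and an absolute log2 fold change over 0.5. The script was tested on simulated data. Limma 3.58.1 and DESeq2 1.42.0 served as alternatives, with RLE factors, no or a stricter filter (1 CPM in 4 samples), the replicate block, a GC and length correction, the 2 groups alone, the replicate sets, each library left out, and other fold minimums. The members and gene lists were chosen with earlier results of these data known. Members with a mean of at least 5 CPM and a call are given in every library, those from 1 to 5 CPM by group means, and rarer ones by counts. The most abundant row of each class is described whether called or not. Partner genes are named where called and over 10 CPM, up to 3 per list by the PB+RA change, and MYO7A, CTCF and CTNNB1 were named as well for their roles, after their values were seen.

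Libraries held 19515779 to 31620821 reads, so a count of 0 allows up to 0.0949 to 0.154 CPM, for counting error only. Over the 24 same-numbered pairs of libraries, deviations from the group means correlated at 0.330 to 0.573. Differently numbered pairs were not compared. These values therefore cannot tell pairing by replicate number from a difference between replicates 1 and 2 and replicates 3 and 4. Replicates 1 and 2 differ from 3 and 4 on the third principal component (10.8% of variance). On the second component (23.0%), which also separates the groups, replicates 1 and 2 lay above 3 and 4 within every group. Replicates come from passages of 1 line, so the p-values cover the spread between cultures. Exon lengths and gene positions come from GENCODE (GRCh37, the hg19 assembly), and promoter windows from RefSeq (GRCh38.p14).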

Additional observations from a re-analysis of the deposited data

Results flagged for a closer look

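In 27 tested genes and 4 groups, 108 sets of 4 libraries were examined for a library apart from the other 3, and 3 had one, where chance flags about 1 in 20. CDH2 was at 201 CPM in PB replicate 1, below 215 to 217 in the other PB libraries. CDH24 was at 224 CPM in DMSO replicate 1, above 203 to 205. CDH5 was at 1.11 CPM in PB+RA replicate 2, above 0.242 to 0.278.

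For 4 genes the effect of PB differed with and without RA by the interaction test. The difference was -0.57 on the log2 scale for CDH2, -0.55 for CDH10, -2.07 for CDH20 and -0.75 for PCDH17. None of these was weighed further.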

How the results depend on the processing

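Of the 60 calls of single members, 32 were made under every alternative to the model, normalisation, filter and libraries, and 37 without any 1 library. No called change turned its sign. The member counts that moved by over 1.5 times are given here, against the 6 higher and 3 lower for PB, 7 and 5 for RA, 6 and 8 for PB+RA, 4 and 7 against PB, 3 and 7 against RA, and 0 and 4 for the interaction. For PB, no filter gave 2 higher, the GC and length correction 3 higher and 5 lower, replicates 3 and 4 alone 2 and 6, DESeq2 5 lower, the 2 groups alone 6 lower, and a log2 minimum of 1 gave 3 and 1. Over all genes PB had 2606 higher and 1746 lower. No filter gave 2477 higher of 27037 tested, the GC and length correction 2031 and 2090, and replicates 3 and 4 alone 2120 and 1925. DESeq2 gave 1851 lower, the 2 groups alone 1831 lower, and the log2 minimum of 1 gave 1140 and 546. For RA, the GC and length correction gave 8 lower, replicates 1 and 2 alone 3 lower and the log2 minimum of 1 gave 1 lower. The same settings took the RA count over all genes from 392 lower to 783, 308 and 87. The log2 minimum of 1 gave 3 higher and 4 lower for PB+RA, and 3 lower against PB. It took all genes from 3698 higher and 2757 lower to 2010 and 1110 for PB+RA, and from 1121 lower to 389 against PB. Against PB, replicates 1 and 2 gave 2 higher and replicates 3 and 4 gave 7. Of all genes they gave 1129 and 1578 higher, where the main fit had 1390. For the interaction, replicates 3 and 4 gave 1 higher, and the GC and length correction, replicates 1 and 2 and the log2 minimum of 1 gave 2, 1 and 1 lower. The interaction over all genes went from 64 higher to 211 with replicates 3 and 4. Its 466 lower became 342, 459 and 142 with the GC and length correction, replicates 1 and 2 and the log2 minimum of 1.

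With the replicate block, which follows the replicate numbers, 7 were lower for PB, 10 higher for PB+RA and 5 lower for the interaction. The block took all genes from 1746 to 1865 lower for PB and from 3698 to 3909 higher for PB+RA. For the interaction it took them from 466 to 981 lower. The block with the GC and length correction gave 7 lower for PB, 9 lower for RA and 2 higher for the interaction. All genes had 2213 lower, 898 lower and 297 higher there, from 1746, 392 and 64. Calls the block added are given beside each gene, and it ended no call. Without 1 library at a time, the counts ranged from 2 to 5 higher and 2 to 6 lower for PB, 4 to 8 and 4 to 7 for RA, 3 to 7 and 7 to 8 for PB+RA, 3 to 6 and 6 to 8 against PB, 3 to 3 and 4 to 8 against RA, and 0 to 0 and 1 to 3 for the interaction. Over all genes the fits without 1 library gave 2268 to 2493 higher and 1742 to 1989 lower for PB. They gave 1407 to 1665 and 389 to 474 for RA, and 3406 to 3722 and 2791 to 2994 for PB+RA. Against PB they gave 1286 to 1467 and 1023 to 1149, and against RA 1988 to 2495 and 2028 to 2318. The interaction had 47 to 87 higher and 289 to 445 lower. The cause of these moves was not tested. Members under 1 CPM rest on few reads, which limits their precision.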
